A study of Homo sapiens with 12 samples.

Results

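The comparison described here is the step from 1 to 10 µM colforsin daropate in HEYA8 cells, an established human ovarian cancer cell line. It sets the 3 libraries of cells kept in 10 µM drug against the 3 libraries of cells kept in 1 µM drug, paired by the number 6, 8 or 11 that each sample title carries. It thus uses 6 of the 12 libraries of the series and none of the vehicle libraries. A gene was tested where at least 3 of the 6 libraries lay more than 1 above the lowest value in the table, which held for 17017 of 21207 genes. The remaining libraries of the series are 3 without drug and 3 at 5 µM, and the 5 µM libraries are used only where they are named. All cells were exposed for 48 h in the same serum-containing medium, all come from 1 cell line, and total RNA was sequenced after removal of ribosomal RNA. The labels call the libraries of a group biological replicates and do not say what the numbers 6, 8 and 11 mark. If the libraries came from 1 culture, the p-values measure only technical spread.

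Colforsin daropate is a soluble drug derived from forskolin, a plant compound that binds adenylyl cyclase and raises cyclic AMP (cAMP). In the textbook pathway cAMP activates protein kinase A and EPAC, the kinase phosphorylates the transcription factor CREB, and phosphodiesterases end the signal by hydrolysing cAMP. Known CREB targets include genes that feed back on signalling, among them phosphodiesterases and phosphatases of MAP kinases.

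Values are the authors' variance-stabilised expression values, close to log2 for abundant genes and flattened towards a floor for rare ones. Depth recovered from the low values was 31.2, 38.4 and 40.1 megareads on genes at 10 µM and 34.8, 39.3 and 37.0 megareads at 1 µM, and here and below 3 values of a group stand in the order of the numbers 6, 8 and 11. The ovarian lineage marker PAX8 had 10027 to 11527 recovered counts at 10 µM and 8722 to 12359 at 1 µM. The ovarian markers WT1 and MSLN were far lower, WT1 with 67.5 to 123 counts at 10 µM and 124 to 147 at 1 µM, and MSLN with 128 to 167 and 104 to 178. MUC16, MUC1, FOLR1 and WFDC2, also on that list, were not analysed here. KRT7, KRT8 and KRT18 were also well expressed, while the epithelial markers EPCAM and KRT19 stayed under 10 counts in all 6 libraries. The leukocyte markers PTPRC and CD14 stayed under 17 counts and the hepatocyte marker ALB under 21. CDH5, an endothelial cadherin, had 3764 to 4332 counts at 10 µM and 3764 to 8722 at 1 µM, beside 29.9 to 50 and 11.6 to 115 for the endothelial marker PECAM1. The libraries of number 6 stood apart from the others. The step had standard deviations over genes of 0.42, 0.31 and 0.28 in numbers 6, 8 and 11, and 587, 143 and 128 genes had a step of at least 1 in either direction. The 1 µM library 6 also had higher levels of mitotic genes, given below. In bulk RNA, fewer cells of a type and less RNA per cell cannot be told apart.

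Between 10 and 1 µM, 268 genes rose and 252 fell, which is 520 of 17017 genes or 3.06% (limma with label number as a block, Benjamini-Hochberg adjusted p under 0.05, two-sided). Such genes are called here, and a difference is always 10 µM minus 1 µM on the stabilised scale with its standard error. Of the called genes, 71 rose and 29 fell by at least 1. The smallest called difference was 0.30. All 520 had steps of 1 sign in 3 of 3 label numbers, against 49.4% of all genes tested. The groups did not overlap for 401 of the 520, against 24.4% of all genes tested. The calls were made on these same values, and a gene with steps of mixed sign could hardly be called. Both comparisons are thus a description and lend the calls no support. At an unadjusted p under 0.05 stood 5589 genes, 32.8% of those tested, with 15.5% higher and 17.3% lower, and the unadjusted counts of lists below are to be read against these shares. Genes called were 3.66% of protein-coding genes, 1.37% of long non-coding RNAs and 1.69% of pseudogenes. Counts of called list members below are to be read against the 1.57% of genes tested that rose and the 1.48% that fell. Calls were also more frequent among abundant genes, with 0.722% of genes at a mean value under 7 and 5.48% of those at 11 or above. For lists of abundant genes the shares over all genes tested are thus a low yardstick.

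The calls lie close to the threshold, with a smallest adjusted p of 0.0244, and the 6 paired libraries leave 2 residual degrees of freedom. With no replicate block 115 genes rose and 152 fell, and 159 of these 267 were among the 520. Leaving out the pair with number 6, 8 or 11 left 0 calls each time, with 4348, 2661 and 3767 genes at an unadjusted p under 0.05. The fit that also held the 5 µM libraries, which add to the estimate of the spread, called 1846 genes higher and 2247 lower (24.1% of 17017) and included all 520. Its adjusted p-values are given below as those of the 9-library fit. Its list counts are to be read against the 10.8% of genes tested that it called higher and the 13.2% lower. That fit called 655 genes without number 6 and 0 without number 8 or number 11, where 4309 and 5059 genes had an unadjusted p under 0.05.

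**Figure D1:**
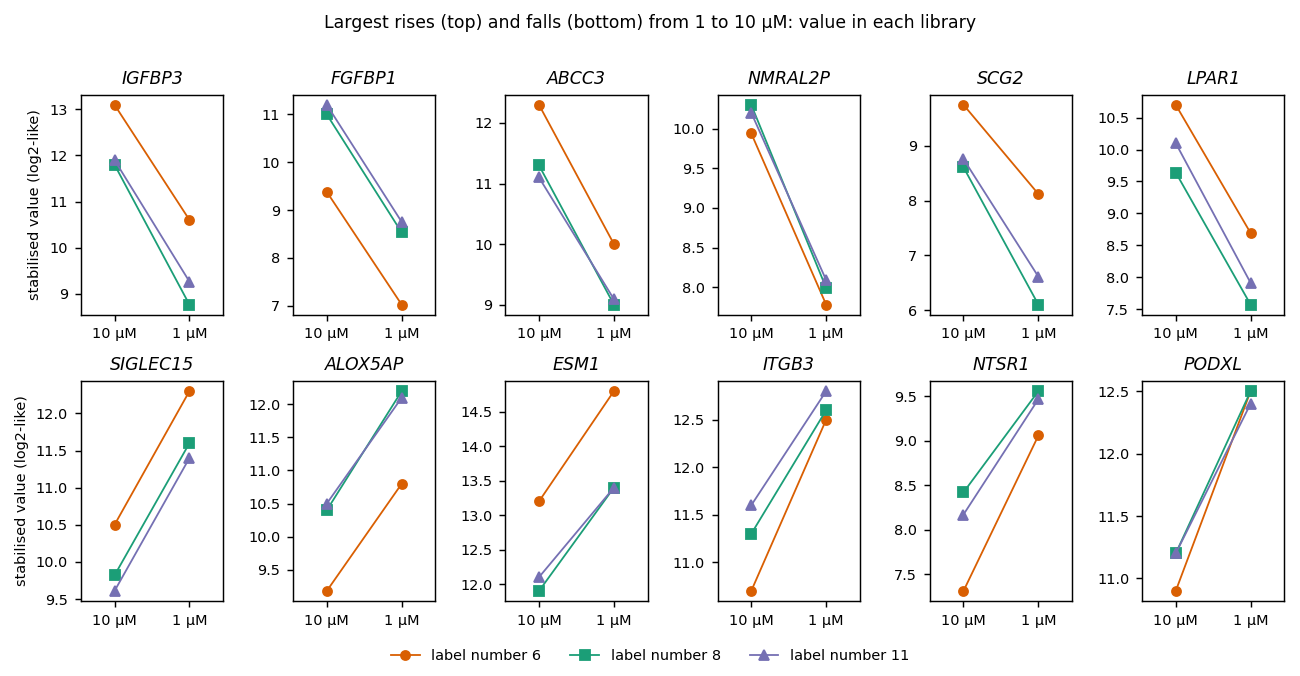
Value of the 6 largest rises (top row) and 6 of the 12 largest falls (bottom row) in each library, with 10 µM on the left and 1 µM on the right of each panel. The vertical axis is the stabilised value, which is log2-like, lines join libraries of 1 label number, and the vertical axes differ between panels. The lines of a panel run close to parallel while their heights differ between numbers, as for IGFBP3 at 13.1, 11.8 and 11.9 at 10 µM against 10.6, 8.76 and 9.26 at 1 µM.

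The largest rise was in IGFBP3, a secreted protein that binds insulin-like growth factors (ENSG00000146674, chromosome 7, 45912245 to 45921874, minus strand, GRCh38). Its level was 13.1, 11.8 and 11.9 at 10 µM against 10.6, 8.76 and 9.26 at 1 µM, and library 6 was highest in both groups, which did not overlap. Recovered counts averaged 5331 ± 2939 at 10 µM and 809 ± 600 at 1 µM (SD, n = 3 each), a 6.59-fold difference (2.73 ± 0.12, limma adjusted p = 0.0307, 9-library fit 6.5e-07). FGFBP1, a secreted carrier of fibroblast growth factors, had 9.38, 11 and 11.2 at 10 µM against 7.02, 8.53 and 8.75 at 1 µM. Here library 6 was the lowest of both groups, and the groups again did not overlap (2.43 ± 0.05, limma adjusted p = 0.0244). ABCC3, an export pump for organic anions and conjugates, had 12.3, 11.3 and 11.1 at 10 µM against 10, 9 and 9.09 at 1 µM (2.20 ± 0.08, limma adjusted p = 0.0244).

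Further genes among the 12 largest rises encode receptors and adhesion or secreted proteins. LPAR1, a receptor for lysophosphatidic acid, rose by 2.09 ± 0.06. SCG2, a granin of secretory vesicles, rose by 2.10 ± 0.20. NRCAM, a neuronal cell adhesion molecule, rose by 1.97 ± 0.07, ACKR3, a scavenging chemokine receptor, by 1.86 ± 0.13 and GUCY1A2, a subunit of soluble guanylyl cyclase, by 1.86 ± 0.05. For ACKR3 the groups overlapped, as the 1 µM value of number 6 (9.77) exceeded the 10 µM values of 8 and 11 (9.29 and 9.49). Called genes given below whose groups overlapped include ADCY9, CCND1, BCL2L11 and PPP1R15A. The zinc finger gene ZSCAN31 rose by 1.90 ± 0.08, but it overlaps ZKSCAN3 on the opposite strand. CYP1B1, a cytochrome of steroid and xenobiotic oxidation, rose by 1.90 ± 0.14. Its recovered counts at 1 µM were only 49.4, 10.8 and 2.11, and their mean was 9.38-fold higher at 10 µM, a larger fold than that of IGFBP3. CYP1B1 also overlaps an antisense gene. How the authors' counting handled strand is not given in the sources used here, so reads of such pairs cannot be told apart. The same holds for further genes given here that overlap a gene on the opposite strand. In the cAMP, MAP kinase, NRF2, p53 and cell death lists these are PDE3A, PDE2A, ADCY3, RGS2, NR4A1, BDNF, CCND1, DUSP1, DUSP6, SPRY4, MYEOV, TXNRD1, GCLC, NQO1, FTH1, NFE2L2, PRDX1, SLC7A11, BMF, BCL2L11, BCL2L1, BBC3 and TIGAR. Among matrix, adhesion, receptor, cytokine, interferon and keratin genes they are ITGA2, ITGA6, ITGB3, LAMA4, COL18A1, SPARC, MMP1, MYLK, VIM, AXL, PAPPA, ICAM1, IL32, IRF1, KRT7, KRT8 and KRT18. The remaining ones are PAX8, WT1, NTSR1, CSPG4, MGST1, RPS28, EEF1D, SNHG29, EPB41L4A-AS1, PDK1, SLC16A1, SLC16A3 and SLC6A6. The pseudogene NMRAL2P had 9.94, 10.3 and 10.2 at 10 µM against 7.78, 7.99 and 8.09 at 1 µM (2.19 ± 0.06). TRIM16L, a near copy of the ubiquitin ligase gene TRIM16, had 11.5, 11.2 and 11.2 at 10 µM against 9.34, 9.29 and 9.23 at 1 µM (2.01 ± 0.07). Both genes share sequence with a relative, so the share of reads that belongs to each is uncertain. Adjusted p-values of these rises were 0.0244 to 0.0481 in limma.

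Among the falls, the largest on the stabilised scale was in an unnamed gene, ENSG00000283265 (-1.83 ± 0.09, limma adjusted p = 0.0315). SIGLEC15, a cell surface receptor for sialic acid, had 10.5, 9.82 and 9.61 at 10 µM against 12.3, 11.6 and 11.4 at 1 µM (-1.79 ± 0.03, limma adjusted p = 0.0244). All 3 steps were nearly equal, and recovered counts averaged 987 ± 355 at 10 µM and 3558 ± 1251 at 1 µM (SD, n = 3 each). ALOX5AP, the activating protein of 5-lipoxygenase in leukotriene synthesis, fell by 1.67 ± 0.06 and ESM1, a secreted proteoglycan, by 1.47 ± 0.07. The neurotensin receptor NTSR1 fell by 1.40 ± 0.14, the sialomucin PODXL by 1.37 ± 0.09 and the nuclear envelope gene SUN3 by 1.34 ± 0.13. Recovered counts of SUN3 at 10 µM were only 4.89, 38.9 and 14.8. TXNIP, an inhibitor of thioredoxin and of glucose uptake, had 12.4, 12.1 and 12.7 at 10 µM against 13.8, 13.5 and 13.9 at 1 µM (-1.33 ± 0.06, limma adjusted p = 0.0307).

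The genes of cAMP signalling moved in both directions across the step. Of 29 CREB targets tested, 6 rose and 4 fell (median difference 0.17, against 0 over all genes tested), and in the 9-library fit 13 rose and 6 fell. SCG2 rose most, as given above. ID1, an inhibitor of differentiation factors, had 11, 10.3 and 10.3 at 10 µM against 9.99, 9.05 and 8.95 at 1 µM (1.20 ± 0.08, limma adjusted p = 0.0428). BDNF, a neurotrophin, rose by 0.70 ± 0.05 and overlaps the antisense gene BDNF-AS. The falls were KLF4, a transcription factor (-1.09 ± 0.12), NR4A1, an orphan nuclear receptor (-0.53 ± 0.06), SGK1, a kinase (-0.53 ± 0.04), and CCND1, cyclin D1 (-0.37 ± 0.04). RGS2, which shuts off G protein signals, had the largest difference of the targets not called, 9.38, 7.99 and 8.17 at 10 µM against 7.54, 7.06 and 7.33 at 1 µM (1.20 ± 0.24, limma adjusted p = 0.0809, 9-library fit 0.00115).

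Enzymes that degrade cAMP also split. Of 12 phosphodiesterases tested, 2 rose and 1 fell (median 0.07). PDE3A had 8.86, 7.38 and 7.73 at 10 µM against 6.60, 5.94 and 6.03 at 1 µM (1.80 ± 0.19, limma adjusted p = 0.0481), with library 6 highest in both groups. Its recovered counts at 1 µM were only 47.5, 17 and 20.1. PDE4B had 10.1, 9.75 and 9.90 at 10 µM against 9.19, 9.11 and 9.19 at 1 µM (0.75 ± 0.07, limma adjusted p = 0.0481). PDE2A, which cyclic GMP stimulates, had 10.3, 11 and 10.9 at 10 µM against 11.3, 11.7 and 11.6 at 1 µM (-0.80 ± 0.08, limma adjusted p = 0.0481). The groups of each of these genes did not overlap. Of 9 genes of cAMP production, the cyclase ADCY9 rose (0.45 ± 0.05) and 0 fell, and ADCY3 had a difference of -0.69 ± 0.16 (limma adjusted p = 0.0959). Of 26 effectors and anchors, which include protein kinase A subunits, EPAC and anchoring proteins, 0 were called in limma and 0 by voom. At an unadjusted p under 0.05, 6 were higher and 4 lower, which is 38.5% of them, near the 32.8% of all genes tested.

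Promoters were searched for the palindromic cAMP response element, TGACGTCA, and for its short form TGACG, on both strands of the 250 bases before each start listed by RefSeq (GRCh38.p14). The long form contains the short one. TGACGTCA stood in 1.57% of 318 windows of genes that rose, in 1.37% of 293 windows of genes that fell and in 2.46% of 16358 windows of all genes tested. TGACG stood in 20.1%, 21.8% and 27.2% of the same windows. In the 54 windows of the CREB target list, from 25 genes, TGACGTCA stood in 7.41% (Wilson 95% interval of counting error 2.92% to 17.6%) and TGACG in 31.5% (20.7% to 44.7%). The intervals count each window as separate, although several can belong to 1 gene, so they are likely too narrow. Windows were found for 187 of the 268 genes that rose and for 188 of the 252 that fell, and the shares describe only those genes. DUSP1, a CREB target and phosphatase of MAP kinases, had 14.4, 14.2 and 14.3 at 10 µM against 13.6, 13.7 and 13.7 at 1 µM (0.63 ± 0.07, limma adjusted p = 0.0499). Its window (chr5:172771196-172771445, minus strand) is shown as an example of a gene that rose with 4 matches to the short form, 2 on each strand. The capitals mark the matches, and those nearest each other form 1 long element.
DUSP1: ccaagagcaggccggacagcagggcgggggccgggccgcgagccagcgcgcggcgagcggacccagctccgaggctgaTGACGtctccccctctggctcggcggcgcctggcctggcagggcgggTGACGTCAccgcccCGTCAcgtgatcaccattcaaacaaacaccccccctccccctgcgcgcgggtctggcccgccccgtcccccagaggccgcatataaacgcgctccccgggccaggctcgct

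NRF2 is the transcription factor of the response to oxidants and electrophiles, held in check by KEAP1, and its targets make glutathione and NADPH and export conjugates. Of 24 targets tested of 28 listed, 13 rose and 0 fell, with a median difference of 0.73 against 0 over all genes tested. Rises were 1.57% of all genes tested. The median step was 0.81, 0.70 and 0.78 in label numbers 6, 8 and 11. In the 9-library fit 17 rose and 0 fell, and without number 6 that fit called 14 higher and 0 lower (0 without number 8 or 11, where it called no gene).

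By role, the members of the list moved as follows. In glutathione synthesis, the modifier subunit GCLM rose by 0.97 and the catalytic subunit GCLC by 0.70. The cystine carrier SLC7A11 had 14.8, 15.1 and 15 at 10 µM against 12.4, 13.8 and 13.8 at 1 µM, without overlap and with the largest step in number 6 (1.63 ± 0.29, limma adjusted p = 0.0666, 9-library fit 8.07e-04). It overlaps an antisense gene. In the thioredoxin system, the reductase TXNRD1 had 15.7, 15.9 and 16 at 10 µM against 14.3, 14.7 and 14.7 at 1 µM, which do not overlap (1.30 ± 0.06, limma adjusted p = 0.0307). Recovered counts of TXNRD1 were 2.45-fold higher. Its substrate TXN (0.03) and the peroxiredoxin PRDX1 (0.03) had differences near 0 and were not called.

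In the supply of NADPH, the pentose phosphate enzymes PGD and TALDO1 each rose by 0.77, while TKT (0.43) and malic enzyme ME1 (0.57, limma adjusted p = 0.056) were not called. Among detoxifying enzymes, the quinone reductase NQO1 rose by 1.17, heme oxygenase HMOX1 by 0.88 and the aldo-keto reductases AKR1C3 and AKR1C1 by 1.35 and 1.17. The last of these are near copies of each other, so their shares of reads are uncertain. The ferritin heavy chain FTH1 rose by 0.83 and the light chain FTL had 0.33 (limma adjusted p = 0.218). The pump ABCC3 and OSGIN1 (0.70) also rose. NFE2L2, which encodes NRF2 itself, and KEAP1 each had a difference of 0.17 and were not called, nor were GSR (0.47), ABCC2 (0.41) and GPX4 (-0.07).

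**Figure D2:**
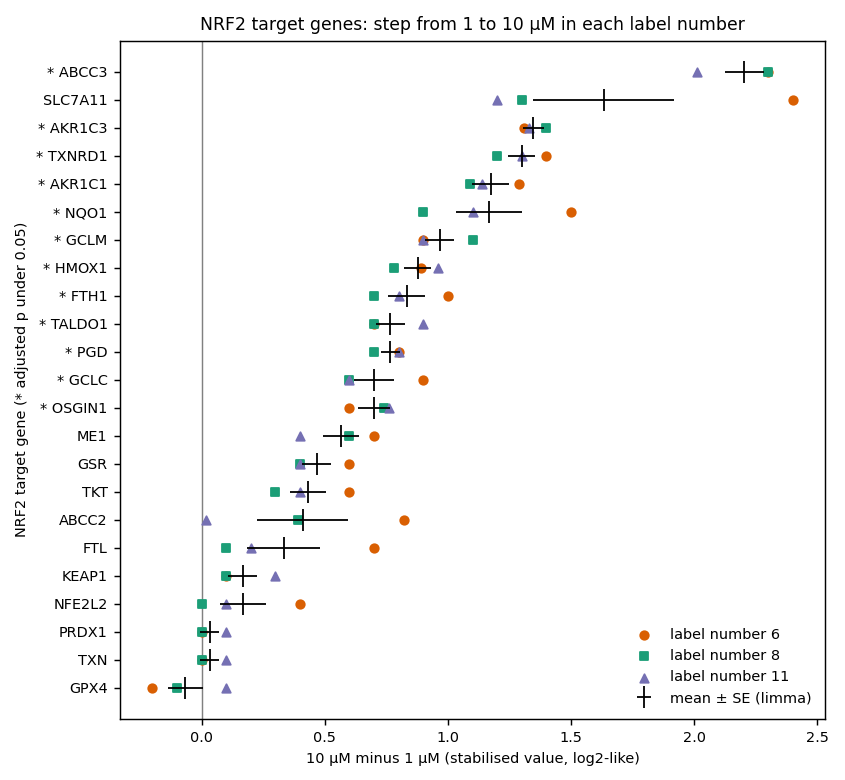
Step of 23 of the 24 NRF2 targets tested, 1 gene to a row, on an axis of 10 µM minus 1 µM in stabilised value. Coloured points are the 3 label numbers, black bars the mean with its limma standard error, and an asterisk marks an adjusted p under 0.05. The 12 asterisked genes have means from 0.70 to 2.20 with all points above 0, and SLC7A11, at 1.63, has the widest spread.

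The core of the antioxidant response element to which NRF2 binds, TGACNNNGC, was searched on both strands of the same 250 bases. It stood in 26.1% of 23 windows, from 17 NRF2 targets (Wilson 95% interval of counting error 12.5% to 46.5%). The interval again counts each window as separate. The share was 13.8% in windows of genes that rose, 14.7% in windows of genes that fell and 11.7% of all 16358 windows. The 6 windows with a match belong to GCLM, TXNRD1 (2 starts), PGD, ME1 and KEAP1, and the match of ME1 overlaps an AP-1 site, TGAGTCA. The windows of the called genes are printed to show where the match lies, with the match in capitals. It begins 34 bases before the start in GCLM (chr1:93909431-93909680, minus strand), 99 and 102 bases before the starts of TXNRD1 (chr12:104215529-104215778 and chr12:104286782-104287031, plus strand) and 201 in PGD (chr1:10398814-10399063, plus strand). A match is a run of letters, not a shown binding site.
GCLM: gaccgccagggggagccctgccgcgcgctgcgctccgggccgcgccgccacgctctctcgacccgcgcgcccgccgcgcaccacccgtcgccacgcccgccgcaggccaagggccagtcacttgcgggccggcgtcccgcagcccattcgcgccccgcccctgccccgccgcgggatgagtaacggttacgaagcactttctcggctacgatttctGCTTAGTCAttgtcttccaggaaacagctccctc
TXNRD1, first start: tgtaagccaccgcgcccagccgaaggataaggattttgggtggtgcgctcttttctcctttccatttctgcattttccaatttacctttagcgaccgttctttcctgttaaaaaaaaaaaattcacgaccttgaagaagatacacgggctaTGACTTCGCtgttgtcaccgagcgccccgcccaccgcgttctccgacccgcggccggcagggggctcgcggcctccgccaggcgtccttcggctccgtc
TXNRD1, later start: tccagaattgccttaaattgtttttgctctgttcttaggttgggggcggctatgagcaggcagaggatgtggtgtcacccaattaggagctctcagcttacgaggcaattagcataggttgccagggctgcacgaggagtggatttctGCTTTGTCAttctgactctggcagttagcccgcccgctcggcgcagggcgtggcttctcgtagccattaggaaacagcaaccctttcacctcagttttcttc
PGD: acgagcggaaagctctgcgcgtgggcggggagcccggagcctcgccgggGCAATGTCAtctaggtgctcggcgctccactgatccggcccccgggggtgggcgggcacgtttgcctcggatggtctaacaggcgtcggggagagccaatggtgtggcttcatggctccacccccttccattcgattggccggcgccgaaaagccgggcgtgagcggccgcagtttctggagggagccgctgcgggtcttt

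Of 14 ABC export pumps, 2 rose and 0 fell (14.3% called, median 0.42), namely ABCC3 and the sterol exporter ABCG1 (0.79 ± 0.06). In the 9-library fit 10 rose, where 10.8% of all genes tested rose. Of 12 prostaglandin genes, 3 rose and 0 fell (median 0.33). PTGES, the terminal enzyme of prostaglandin E2 synthesis, had 10.8, 10.9 and 11.1 at 10 µM against 9.19, 9.77 and 9.88 at 1 µM (1.32 ± 0.11, limma adjusted p = 0.0456). The other called members were AKR1C3 and AKR1C1, which also stand in the NRF2 list. PTGS2, the inducible cyclooxygenase, had 9.21, 7.13 and 7.04 at 10 µM against 7.40, 6.60 and 6.71 at 1 µM, a step carried mostly by number 6 (0.89 ± 0.35, limma adjusted p = 0.186).

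In the insulin-like growth factor axis, 2 of 15 genes rose and 1 fell. The rises were the binding proteins IGFBP3 and IGFBP4 (0.80 ± 0.08), and the fall was the adaptor IRS2 (-0.64 ± 0.07). PAPPA, a protease that cleaves IGFBP4, had 13.5, 12.9 and 12.9 at 10 µM against 11.4, 11.4 and 11.7 at 1 µM. The groups did not overlap, but the difference missed the threshold (1.60 ± 0.20, limma adjusted p = 0.0537, 9-library fit 7.88e-05), and PAPPA overlaps antisense genes. Of 25 NF-kB targets and cytokines, 1 rose and 3 fell (median -0.04). IL11, an interleukin of the IL-6 family, had 13.6, 12 and 12.5 at 10 µM against 11.9, 10.5 and 10.8 at 1 µM (1.63 ± 0.06, limma adjusted p = 0.0244). ICAM1, an adhesion molecule for leukocytes, fell by 0.67 ± 0.04, IL32 by 0.47 ± 0.05 and IL1A by 0.33 ± 0.04.

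Matrix and adhesion genes moved in both directions. Of 39 collagens, integrins and matrix genes, 5 rose and 4 fell (median 0.23). COL1A1, a chain of type I collagen, had 10.4, 8.37 and 8.40 at 10 µM against 8.69, 7.04 and 6.87 at 1 µM (1.52 ± 0.10, limma adjusted p = 0.0428). Library 6 was highest in both groups, and the 1 µM value of library 6 lay above the other 10 µM values. COL18A1 (0.70), COL5A2 (0.60), the collagen-binding glycoprotein SPARC (0.53) and the collagen receptor subunit ITGA2 (0.67 ± 0.04) also rose. Falls included ITGB3 (-1.43 ± 0.14), LAMA4 (-0.87) and ITGA6, a subunit of laminin receptors, with 12.8, 12.9 and 13 at 10 µM against 14.2, 13.9 and 13.9 at 1 µM (-1.10 ± 0.12, limma adjusted p = 0.0481).

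Proteases followed no single direction. Of 21 matrix metalloproteases and plasminogen genes, 3 rose and 2 fell (median 0.03). ADAMTS5, an aggrecanase, rose by 1.56 ± 0.09, PLAT, the tissue plasminogen activator, by 0.97 ± 0.10 and ADAM12 by 0.76 ± 0.05. MMP1, the interstitial collagenase, had 6.41, 6.11 and 6.36 at 10 µM against 7.40, 7.57 and 7.75 at 1 µM (-1.28 ± 0.13, limma adjusted p = 0.0481), and ADAMTS1 fell by 0.37 ± 0.04. Of 31 TGF-beta and BMP genes, 3 rose and 0 fell (9.68% called, median 0.13): the BMP targets ID1 and ID3 (1.10 ± 0.08) and the matrix protein TGFBI (0.73 ± 0.07). Of 25 YAP/TEAD targets, 2 rose and 2 fell (median 0), among them the coagulation receptor F3 (0.90 ± 0.08) and the receptor kinase AXL (-0.50 ± 0.05). Of 28 SRF and actin genes, 0 rose and 2 fell (7.14% called), the myosin kinase MYLK (-0.93 ± 0.07) and alpha-actinin ACTN1 (-0.30 ± 0.03). VIM, the intermediate filament protein vimentin, had 17.5, 17 and 17.1 at 10 µM against 18.3, 17.6 and 17.7 at 1 µM (-0.67 ± 0.07, limma adjusted p = 0.049).

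The output genes of MAP kinase signalling, which include phosphatases that feed back on the kinases, also moved in both directions. Of 28 tested, 3 rose and 5 fell (median -0.22). DUSP4, a nuclear phosphatase of MAP kinases, rose by 0.90 ± 0.09, DUSP1 rose as given above, and the transcription factor ETV1 rose by 0.50 ± 0.05. DUSP6, the cytoplasmic phosphatase of ERK, had 12.6, 13 and 13.1 at 10 µM against 13.1, 13.4 and 13.5 at 1 µM (-0.43 ± 0.04, limma adjusted p = 0.0456). Within each number DUSP6 was lower at 10 µM, although the groups touch. SPRY4, a feedback inhibitor of the pathway, fell by 0.57 ± 0.04 and PTPRR, a phosphatase that binds ERK, by 1.33 ± 0.11. PTPRR had only 12.2, 22.4 and 27.3 recovered counts at 10 µM. MYEOV (-0.50) and CCND1 complete the falls, and EGR1, an immediate early transcription factor, had -0.54 ± 0.07 (limma adjusted p = 0.0571).

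The series title concerns MYC, the transcription factor of cell growth (chromosome 8, 127735434 to 127741434, plus strand, GRCh38). MYC had 11.6, 12.3 and 12.2 at 10 µM against 12.3, 12.6 and 12.5 at 1 µM. It was lower at 10 µM in 3 of 3 numbers, most in number 6, but the highest 10 µM value equals the lowest 1 µM value. Recovered counts averaged 4226 ± 1036 at 10 µM and 5623 ± 591 at 1 µM (SD, n = 3 each). The difference was not called (-0.43 ± 0.10, limma adjusted p = 0.0979), and the 9-library fit gave 0.00586. Of 11 genes of the MYC network, which includes MAX, MXD proteins and MGA, 0 were called by limma or by voom, with 1 higher and 3 lower at an unadjusted p under 0.05 (36.4%, against 32.8% of all genes tested).

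Of 79 cytosolic ribosomal proteins, 22 fell and 0 rose, against 1.48% of all genes that fell. In 3 of 3 label numbers 75 of the 79 were lower, against 4320 of the 17017 genes tested. The median difference was -0.40, with -0.40, -0.50 and -0.30 in numbers 6, 8 and 11, and the median level was 13.9, 14 and 14.2 at 10 µM against 14.4, 14.6 and 14.5 at 1 µM. In the 9-library fit 71 fell, against 13.2% of all genes, and without number 6 that fit called 8. RPSA, a protein of the small subunit, had 12.7, 13 and 13 at 10 µM against 13.6, 13.8 and 13.7 at 1 µM (-0.80 ± 0.05, limma adjusted p = 0.0428). RPS13 fell by 0.53 ± 0.04, and RPS28 had -0.63 ± 0.09 (limma adjusted p = 0.0614). These genes have many pseudogene copies. Reads the authors' counting called not unique made up 19.3%, 20% and 21.2% at 10 µM and 20.2%, 20.7% and 21.4% at 1 µM, and their part in the result was not tested.

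Of 60 MYC targets of ribosome biogenesis and growth, 3 fell and 0 rose (median -0.23), which is 5% against 3.06% of all genes tested. Of genes tested with a mean value of 11 or above, 5.48% were called. The list's median level was 11.6 at 10 µM and 11.8 at 1 µM, so its share lies near that of genes as abundant. In the 9-library fit 28 fell and 2 rose, where 13.2% of all genes tested fell and 10.8% rose. HNRNPA1, a splicing regulator, had 12.2, 12.4 and 12.3 at 10 µM against 13.1, 13.2 and 13.1 at 1 µM (-0.83 ± 0.04, limma adjusted p = 0.0307). FBL, which methylates ribosomal RNA, fell by 0.78 ± 0.08 and the nucleolar protein NPM1 by 0.47 ± 0.04. CDC25A, a phosphatase that activates cell cycle kinases, had -0.85 ± 0.16 (limma adjusted p = 0.075). Of 31 translation factors, 2 fell and 0 rose (6.45% called, median -0.23), EEF1D (-0.60 ± 0.05) and EIF3D (-0.37 ± 0.04). Of 18 host genes of small nucleolar RNAs, 2 fell and 0 rose (11.1% called, median -0.18), SNHG29 (-0.50 ± 0.05) and EPB41L4A-AS1 (-0.43 ± 0.05).

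The cell cycle lists had the lowest medians of those examined, and the size of their step differed between label numbers. Of 54 genes of G1/S and DNA replication, 2 fell and 0 rose, which is 3.70%, near the 3.06% of all genes tested. Their median was -0.62, with steps of -1, -0.50 and -0.41 in numbers 6, 8 and 11. In the 9-library fit 47 fell and 1 rose, where 13.2% of all genes tested fell and 10.8% rose. Without number 6 that fit called 18 lower and 0 higher. PCNA, the sliding clamp of DNA polymerase, had 11.6, 11.7 and 11.7 at 10 µM against 12.1 in all 3 libraries at 1 µM (-0.43 ± 0.04, limma adjusted p = 0.0456). TK1, thymidine kinase, had 8.26, 8.92 and 8.61 at 10 µM against 10.5, 9.89 and 9.37 at 1 µM. Its groups did not overlap, but the steps were unequal and it was not called (-1.32 ± 0.35, limma adjusted p = 0.109, 9-library fit 0.00444).

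Of 40 genes of G2/M and mitosis, 0 were called by limma and 0 by voom, with 0 higher and 12 lower at an unadjusted p under 0.05 (30.0%, against 32.8% of all genes tested in either direction and 17.3% lower). Their median difference was -0.80, with medians of -1.71, -0.50 and -0.30 in numbers 6, 8 and 11. The list's median level was 9.29, 9.34 and 9.09 at 10 µM against 10.95, 9.92 and 9.51 at 1 µM. The 10 µM libraries thus lay close together, and the 1 µM library 6 stood above the others at 1 µM. The 9-library fit called 29 lower and 0 higher, against 13.2% and 10.8% of all genes tested, and without number 6 it called 6 lower. UBE2C, a ubiquitin carrier of the anaphase-promoting complex, had 9.01, 9.15 and 8.94 at 10 µM against 11.5, 9.89 and 9.47 at 1 µM (-1.25 ± 0.46, limma adjusted p = 0.167). Among cell cycle inhibitors, CDKN1C, which encodes p57, had 11.3, 10.3 and 10.4 at 10 µM against 10.2, 8.87 and 8.95 at 1 µM (1.33 ± 0.09, limma adjusted p = 0.0428).

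**Figure D3:**
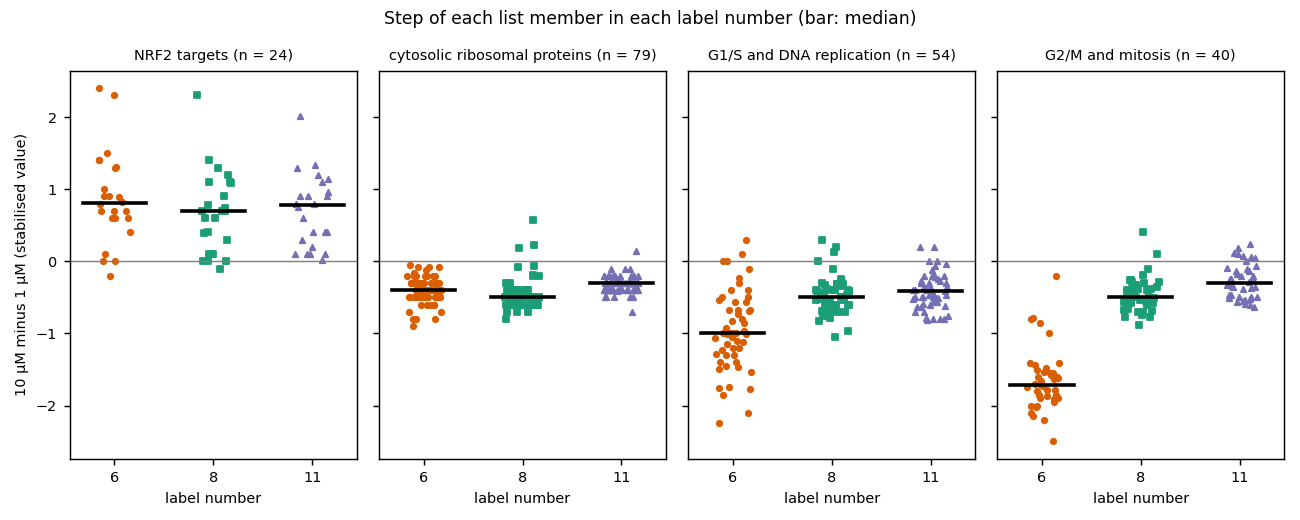
Step of every list member in label numbers 6, 8 and 11, on a shared axis of 10 µM minus 1 µM in stabilised value, with a black bar at the median. The NRF2 targets have medians of 0.81, 0.70 and 0.78 and the ribosomal proteins of -0.40, -0.50 and -0.30. The G2/M genes have -1.71 in number 6 beside -0.50 and -0.30 in the others.

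Lists of cell death, stress and metabolism held 0 to 5 calls each, and their shares are set against 3.06% of all genes tested. Of 17 genes of the BCL2 family, 2 rose and 1 fell (17.6%, median -0.22). The pro-death members BMF (1.13 ± 0.06, limma adjusted p = 0.0319) and BCL2L11, which encodes BIM (0.54 ± 0.06), rose, and the anti-death member BCL2 fell (-0.77 ± 0.08). Not called were the pro-death gene BBC3 (-0.48 ± 0.07, limma adjusted p = 0.0605) and the anti-death member BCL2L1 (-0.57 ± 0.09, limma adjusted p = 0.0659). In the 9-library fit 2 of the family rose and 7 fell, where 10.8% of all genes tested rose and 13.2% fell. BMF had 10.1, 8.20 and 8.22 at 10 µM against 9.02, 7.02 and 7.08 at 1 µM, and the 1 µM value of number 6 exceeded the 10 µM values of the others. Of 26 p53 targets (7.69% called), TIGAR rose (0.62 ± 0.07) and CCNG1 fell (-0.53 ± 0.04). Of 31 genes of the integrated stress response (6.45% called), DDIT4, an inhibitor of mTOR complex 1, rose (0.57 ± 0.06) and PPP1R15A, a phosphatase subunit, fell (-0.60 ± 0.05). Of 31 genes of the unfolded protein response, 0 were called by limma or voom (13 higher and 2 lower at an unadjusted p under 0.05, or 48.4% against 32.8% of all genes tested, median 0.10).

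In glycolysis 1 of 23 genes rose and 4 fell (21.7%, median -0.17). The lactate exporter SLC16A3 rose by 0.50 ± 0.03, while hexokinase HK1 (-0.53 ± 0.04), the carrier SLC16A1 (-0.37 ± 0.04) and the kinase PDK1 (-0.57 ± 0.06) were among the falls. Of 56 nuclear genes of the respiratory chain 2 fell (3.57%), COX5A (-0.47 ± 0.04) and UQCRH (-0.50 ± 0.05). Of 26 cholesterol genes 1 rose (3.85%), the sterol reductase TM7SF2 (0.87 ± 0.08). The shares of both lists lie near the 3.06% of all genes tested. Of 19 polyamine and metallothionein genes, 1 rose and 2 fell (15.8%, median -0.07). SMOX, the spermine oxidase, had 12, 11.9 and 12 at 10 µM against 10.7, 10.6 and 10.7 at 1 µM (1.30 ± 0.03, limma adjusted p = 0.0244). The metallothioneins MT1E (-1.35 ± 0.09) and MT2A fell. MT2A had 13.6, 13.7 and 13.7 at 10 µM against 14.6, 14.6 and 14.5 at 1 µM (-0.90 ± 0.05, limma adjusted p = 0.0399). Metallothionein genes are near copies, so the split of reads among them is uncertain.

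In the lists not yet named there was at most 1 call in each direction, apart from 2 falls among the epithelial and mesenchymal genes. Amino acid carriers held SLC6A6 (0.87 ± 0.07) and SLC6A15 (-0.53 ± 0.04), the interferon list IRF1 (0.37 ± 0.04) and IFI44L (-0.66 ± 0.07), and the receptor tyrosine kinase list EFNA5 (0.66 ± 0.04) and AXL. In the Notch list RBPJ fell (-0.57 ± 0.04), and OCLN, a tight junction protein, rose (0.61 ± 0.06) while SNAI2 fell (-0.37 ± 0.04) beside VIM. Ovarian markers (10 tested) and markers of blood, endothelial and liver cells (3 tested) held 0 calls by limma or voom, with 2 and 0 higher and 2 and 1 lower at an unadjusted p under 0.05 (40.0% and 33.3%, against 32.8% of all genes tested). Heat shock (19 tested), circadian (16), fatty acid (14), proteasome (31), PP2A (18) and mitochondrially encoded genes (13) held 0 calls by limma or voom. At an unadjusted p under 0.05 these 6 lists held 1, 3, 2, 0, 1 and 0 genes that were higher and 5, 4, 3, 2, 3 and 0 that were lower. These are 31.6%, 43.8%, 35.7%, 6.45%, 22.2% and 0% of the lists, against 32.8% of all genes tested.

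**Figure D4:**
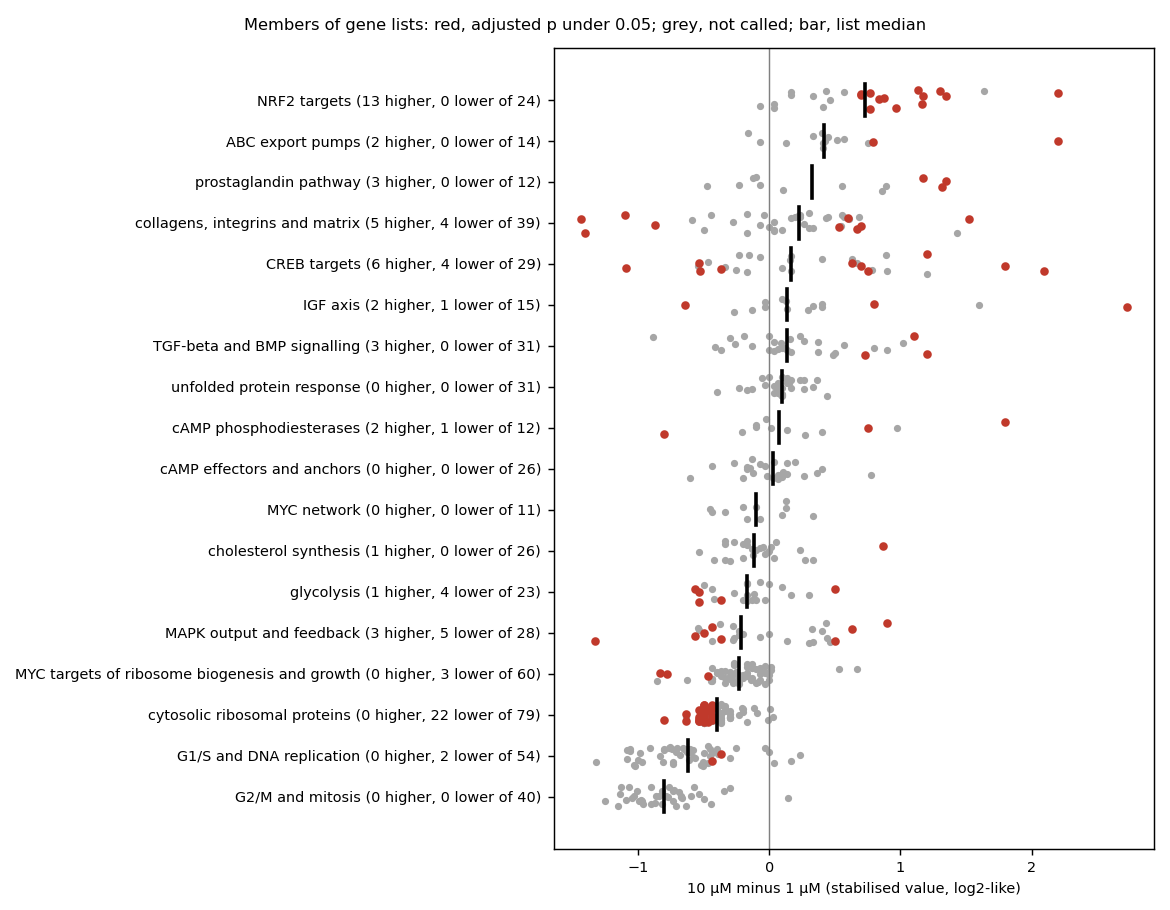
Difference of each tested member of 18 gene lists, 10 µM minus 1 µM in stabilised value, with the lists ordered by their median (black bar). Red points passed an adjusted p of 0.05 in limma and grey points did not, and each label gives the counts. The NRF2 targets have the highest median, 0.73 and the G2/M genes, with no red point, the lowest, -0.80.

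The 5 µM libraries, which took no part in the calls, place the step between its ends. Of the 268 genes that rose, 252 (94.0%) had a 5 µM mean between those at 1 and 10 µM, as did 247 of the 252 that fell (98.0%), against 63.0% of all genes tested. The median part of the step reached at 5 µM was 70.0% for the rises and 66.7% for the falls. In 229 of the rises and 215 of the falls the 5 µM mean lay nearer to that at 10 µM. Being called between 1 and 10 µM makes a mean in between more likely, so these shares are a description. On a log scale of dose, 5 µM itself lies nearer to 10 than to 1 µM. A mean nearer to that at 10 µM thus does not by itself show levelling off, which was not tested. The midpoint used below is that of the expression values, not of the doses.

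A limma contrast of 5 µM against the midpoint of 1 and 10 µM, over 9 libraries and 17017 genes, called 6 genes above it (0.0353%) and 0 below. At an unadjusted p under 0.05, 1071 genes lay off the midpoint (6.29%), 2.9% above it and 3.39%, or 577 genes, below it, and voom called 0 below. FGFBP1 had 8.10 ± 0.94 at 1 µM, 10.23 ± 0.93 at 5 µM and 10.53 ± 1.00 at 10 µM (SD, n = 3 each), which is 87.8% of the step at 5 µM (0.92 ± 0.07 above the midpoint, limma adjusted p = 0.00218). The others, each with a limma adjusted p of 0.0427, included NMRAL2P (0.79 ± 0.09), TRIM16L (0.57 ± 0.07), CFAP251 (0.48 ± 0.06) and the glutathione transferase MGST1 (0.40 ± 0.05). In CFAP251 the 5 µM mean, 10.47, was above that at 10 µM, 10.40. Below the midpoint, SIGLEC15 (-0.44 ± 0.06, limma adjusted p = 0.0564), CSPG4 (-0.60 ± 0.09, limma adjusted p = 0.0934) and HMGA1 (-0.42 ± 0.08, limma adjusted p = 0.161) came nearest with SEMA4B and DGKD and were not called. HMGA1, an architectural chromatin protein, itself fell between 10 and 1 µM (-1.03 ± 0.08, limma adjusted p = 0.0428). Without number 6, 8 or 11 the contrast called 0 genes.

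**Figure D5:**
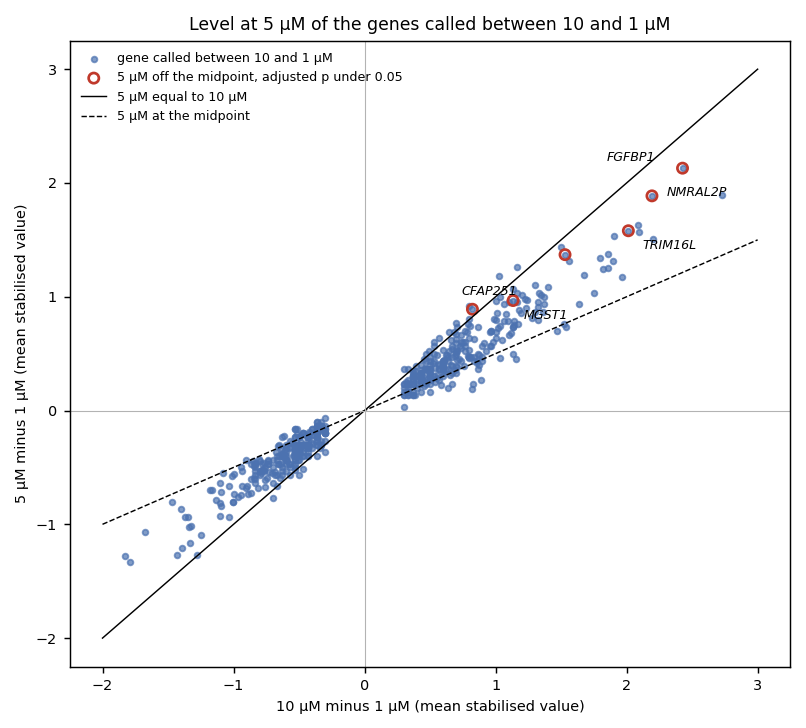
Mean at 5 µM minus mean at 1 µM against mean at 10 µM minus mean at 1 µM, in stabilised value, for the 520 called genes. The solid line marks a 5 µM level equal to that at 10 µM and the dashed line the midpoint, and red circles mark the 6 genes, 5 of them named, above the midpoint at an adjusted p under 0.05. Most points lie between the lines, with a median of 70.0% of the step for rises and 66.7% for falls.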

How the data were processed

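RNA was measured in 12 libraries, of which the 6 at 10 and 1 µM were compared. The deposited values were variance-stabilised by the authors on a log2-like scale; per the submitters' processing notes, the tools included DESeq2 and the genome build was GRCh38. The aligner, counter, strand setting and annotation are not given in the sources used here. Values were rounded to 3 significant digits, so 30.9% of them, at 10 or above, carry steps of 0.1. Of the 520 called genes, 326 had a mean value of 10 or above over the 10 and 1 µM groups. Among the 520, 31 had 3 identical steps, against 322 of the 17017 genes tested, which rounding makes possible. The part of rounding in small standard errors and in the calls was not tested. Because the deposited libraries share 1 scale, changes are relative to other genes.

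Depths were recovered from whole-read steps of low values (97.1% of 79211 were whole within 0.0055, against 33.2% with depths assigned to other libraries). Recovered counts accompany some values and carry the rounding error. Stabilised values were fitted in limma 3.58.1 (R 4.3.3) with dose, label number as a block and a variance trend, two-sided, with adjustment over 17017 genes, and tested on simulated data. The comparison was defined as paired by number. Deviations of same-numbered libraries from their group means correlated at 0.62, 0.44 and 0.41 over genes for 6, 8 and 11. Numbers 8 and 11 also correlated with each other, at 0.21 (10 µM library 8 with 1 µM library 11) and 0.49 (10 µM library 11 with 1 µM library 8). The correlations thus set number 6 apart but cannot show that 8 pairs with 8 and 11 with 11. Symbols were found for 21166 of 21207 genes and positions in GENCODE 29 for 20439. Promoter sequences are from RefSeq (GRCh38.p14).

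The named genes are the 12 largest called rises and falls, MYC, per list up to 3 called members in each direction with the smallest p and the largest difference not called, and 5 genes on each side of the midpoint. Where a list is small, or for the NRF2 targets, further members are named. Results of some genes are not reported here. The comparison, its lists and its tests were chosen with earlier results of these data known. Alternatives varied the block, the libraries fitted, the filter, the scaling, the variance model and voom on recovered counts, and left out each number.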

Additional observations from a re-analysis of the deposited data

How the results depend on the processing

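The 152 genes named by the rule did not change the sign of their difference under any alternative that gave them a value (136 of them passed the stricter filter), and further genes the text names were not followed there. For most alternatives this was fixed in advance. Removing the block, adding libraries, changing the filter or dropping the variance trend leaves the difference itself unchanged in this balanced design. A gene with steps of 1 sign also keeps that sign when a number is left out. Leaving out both libraries of a number gave 0 to 0 calls in the 6-library fit and 0 to 655 (0 to 314 higher, 0 to 341 lower) in the 9-library fit, an alternative chosen after seeing the data; 323 of those 655 were among the 520. With the replicate block removed, 267 genes were called (115 higher, 152 lower), 159 of them among the 520 that rest on the pairing by number. Counts of called genes, higher and lower, were 4093, 1846 and 2247 with the 9 treated libraries and 3713, 1689 and 2024 with all 12. They were 2564, 1260 and 1304 with quantile normalization and 3682, 1990 and 1692 with a median shift. They were 284, 154 and 130 with voom on recovered counts and 33, 28 and 5 with no variance trend. The cause of these shifts was not tested. With no filter, a stricter filter or a filter over 12 libraries, 409, 548 and 439 genes were called. For the midpoint contrast the counts were 0 with no replicate block, 10 with no filter, 1 with the stricter filter, 12 with quantile normalization and 7 with voom, and leaving out a number gave 0 to 0. The share of promoters of risen genes with TGACGTCA was 1.57% also in the whole 300-base window. Of the 152, 47 were called with no block, 70 by voom and 152 in the 9-library fit.

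Of genes with a mean value under 7, 0.722% were called, against 5.48% of those at 11 or above. The part of depth in this was not tested.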

Other observations

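Some further genes were picked out after their values were seen, so they are examples and their p-values do not allow for the choice. C1S, a protease that starts the classical complement pathway, had 11.7, 9.71 and 9.85 at 10 µM against 10, 7.83 and 7.96 at 1 µM (1.82 ± 0.06, limma adjusted p = 0.0244). Its groups overlapped, as the 1 µM value of number 6 exceeded the 10 µM values of 8 and 11. C1R, the partner of C1S, had 0.99 ± 0.17 and was not called (limma adjusted p = 0.0665, 9-library fit 0.00106). The bradykinin receptor BDKRB2 rose by 1.47 ± 0.04, the interleukin-1 receptor IL1R1 by 1.37 ± 0.07 and SPP1, the secreted protein osteopontin, by 1.5 ± 0.16. SPP1 had 13.5, 13.4 and 13.3 at 10 µM against 11.6, 12 and 12.1 at 1 µM, without overlap. RDH10, which oxidises retinol, rose by 1.00 ± 0.12. TRIM16 (1.40 ± 0.06) rose beside its near copy TRIM16L, and PIR, an iron-binding nuclear protein, rose by 1.07 ± 0.11. HMGA2, a relative of HMGA1, fell by 0.70 ± 0.05. C1S, IL1R1, RDH10, TRIM16 and HMGA2 each overlap a gene on the opposite strand, so their reads and those of that gene cannot be told apart.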
